A study of Homo sapiens with 14 samples.

Results

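The 40 genes described here build and guard the attachment of chromosomes to the spindle, and they were followed by RNA sequencing in A549 and H1792 cells given AMG900. The members were a fixed list of gene symbols, chosen with earlier results of these data known, so the shares of members called are not independent of these data. All 40 were found among the 26732 genes listed for both lines. A549 and H1792 are lung adenocarcinoma cell lines, and AMG900 is an inhibitor of the Aurora kinases, which control spindle assembly and correct faulty chromosome attachments. The 14 libraries were made from A549 cells in DMEM with DMSO as the vehicle (n = 4) or 0.1 µM AMG900 (n = 4), and from H1792 cells in RPMI 1640 with DMSO (n = 3) or 0.1 µM AMG900 (n = 3). Cells were collected after 48 h. The RNA is bulk RNA of each line. The protocol states 3 replicates for each treatment, whereas the A549 samples are labelled replicates 1 to 4, and separate cultures, passages or days are not named, so p-values measure the spread between these samples, which may be technical.

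Total counts ran from 4254644 to 18962883 per library in A549, with the lowest in DMSO replicate 1, and from 42760874 to 79902934 in H1792. Of 5 epithelial markers, 4 were at 1 CPM (the counts-per-million scale) or more in every library of each line. The exception was EPCAM in A549 (at most 0.539 CPM) and CDH1 (E-cadherin) in H1792 (0.57 to 1.04 CPM), whereas KRT8, KRT18 and KRT19 passed in both, with summed levels of 4473 to 6878 CPM in A549 and 659 to 830 CPM in H1792. None of 4 lung epithelium markers (NKX2-1, NAPSA, SFTPB, SFTPC) reached 1 CPM in every library of either line, and their summed levels stayed between 0.637 and 2.0 CPM in A549 and between 0.185 and 1.44 CPM in H1792. Of 6 fibroblast markers, 6 reached 1 CPM in every H1792 library and 1 did in A549, with summed levels of 2574 to 4393 CPM and 39.8 to 121 CPM. Blood markers (1 of 4 in each line) summed to at most 11.3 CPM, and endothelial markers (0 of 3 in A549 and 1 of 3 in H1792) summed to at most 16.1 CPM.

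The kinetochore is a layered protein assembly that forms once per sister chromatid. Its base is a nucleosome holding CENPA, a histone H3 variant, and a set of inner proteins, the constitutive centromere-associated network (CCAN), sits on it. The outer layer, the KMN network of KNL1 (listed here under its older symbol CASC5), the Mis12 complex and the Ndc80 complex, grips microtubules and carries the spindle checkpoint, which holds a cell in mitosis until every chromosome is attached. Many of these genes are known to be transcribed mostly in G2 and mitosis, through promoters that often hold a CHR element (cell cycle genes homology region) and CCAAT boxes. In bulk RNA, fewer cells in those phases and less RNA per cell cannot be told apart.

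The promoters of members from different layers are shown because they set members that fell in A549 beside members that were not called there. Each runs 5′ to 3′ from 150 bases before to 30 after a RefSeq gene start on GRCh38.p14, and capitals mark CHR letters (TTTGAA, or the related form TTCGAA) and CCAAT letters, each on either strand. The stretches of CENPA (chr2:26785906-26786085, plus strand), CENPN (chr16:81007064-81007243, plus strand), NDC80 (chr18:2571407-2571586, plus strand), BUB1 (chr2:110678034-110678213, minus strand) and SGOL1 (chr3:20186177-20186356, minus strand) belong to members that were lower with AMG900 in A549. Those of CENPT (chr16:67847664-67847843, minus strand) and MAD1L1 (chr7:2232916-2233095, minus strand) belong to members that were not called in that line.
CENPA: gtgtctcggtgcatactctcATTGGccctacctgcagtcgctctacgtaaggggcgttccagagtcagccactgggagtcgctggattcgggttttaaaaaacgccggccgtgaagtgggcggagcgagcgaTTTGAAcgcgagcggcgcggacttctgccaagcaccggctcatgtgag
CENPN: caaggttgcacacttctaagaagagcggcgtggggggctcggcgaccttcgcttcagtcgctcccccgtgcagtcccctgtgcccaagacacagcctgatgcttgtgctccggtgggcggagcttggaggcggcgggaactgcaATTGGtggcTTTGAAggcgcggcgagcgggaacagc
NDC80: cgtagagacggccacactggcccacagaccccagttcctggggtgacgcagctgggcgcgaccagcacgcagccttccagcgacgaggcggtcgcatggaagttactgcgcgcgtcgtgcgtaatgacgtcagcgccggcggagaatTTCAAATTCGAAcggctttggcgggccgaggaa
BUB1: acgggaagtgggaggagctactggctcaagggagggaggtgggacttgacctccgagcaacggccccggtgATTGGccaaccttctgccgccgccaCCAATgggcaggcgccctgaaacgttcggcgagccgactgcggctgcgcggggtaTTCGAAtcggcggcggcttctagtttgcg
SGOL1: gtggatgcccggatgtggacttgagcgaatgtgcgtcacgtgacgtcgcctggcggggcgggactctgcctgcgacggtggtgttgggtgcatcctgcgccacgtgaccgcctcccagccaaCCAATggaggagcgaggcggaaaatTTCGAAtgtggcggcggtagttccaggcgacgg
CENPT: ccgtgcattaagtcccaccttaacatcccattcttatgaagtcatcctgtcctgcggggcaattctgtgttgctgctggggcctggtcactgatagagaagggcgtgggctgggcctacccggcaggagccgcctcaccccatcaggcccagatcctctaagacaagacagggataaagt
MAD1L1: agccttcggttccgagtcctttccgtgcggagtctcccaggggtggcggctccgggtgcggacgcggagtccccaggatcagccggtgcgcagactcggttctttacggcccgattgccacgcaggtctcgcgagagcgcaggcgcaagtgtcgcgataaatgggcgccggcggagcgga

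CENPA, CENPN, NDC80, BUB1 and SGOL1 each held CHR letters close to the start, while the stretches of CENPT and MAD1L1 held neither CHR nor CCAAT letters. The stretches shown are a selection, and the split over all members with a window was less clean. CHR letters occurred in 17 of the 25 that fell in A549 and in 1 of the 6 not called there. SPC24, DSN1 and CENPE were among those that fell without CHR letters. CCAAT letters occurred in 16 of the 25 and in 3 of the 6. Windows from 250 bases before to 50 after a gene start were found for 32 of the 40 members in the RefSeq table, and not for CENPH, CENPL, CENPM, CASC5, BUB3, TTK, KNTC1 and MIS18A. CHR letters occurred in 18 of the 32 members (56.2%), against 19.5% of 27305 genes with a window of the same length. CCAAT letters occurred in 20 members (62.5%, against 39.7% of all genes), and both kinds in 12 members (37.5%, against 9.02%). E2F-type letters (TTGGCGC, the variant TTCGCGC, the variant TTGCCGC and also the variant TTCCCGC, on either strand and free to overlap with the other motifs) occurred in 13 members (40.6%, against 15.3%). A match to these letters is a description of the sequence and not a measured binding site.

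In A549 the kinetochore genes were lower with AMG900 in every layer. Of the 37 members that passed the low-count filter, 31 fell at a false discovery rate (FDR) of 0.01, against 17.8% of all 13174 genes tested, and 30 of the 31 fell at least 2-fold. No member rose, against 17.2% of all genes, none was higher at an unadjusted p under 0.05, and DESeq2 called 0 higher as well. The median log2 fold change of the tested members was -2.46, against -0.01 for all genes. The average log2 level of the members relative to the DMSO libraries lay between -2.24 and -2.13 in the 4 AMG900 libraries and between -0.02 and 0.04 in the 4 DMSO libraries, so the groups lay far apart. Levels with AMG900 lay wholly below those with DMSO for 34 of the 37 (against 22.0% of all genes tested) and wholly above for none (against 21.9%), and overlapped for CENPT, NSL1 and MAD1L1.

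**Figure D1:**
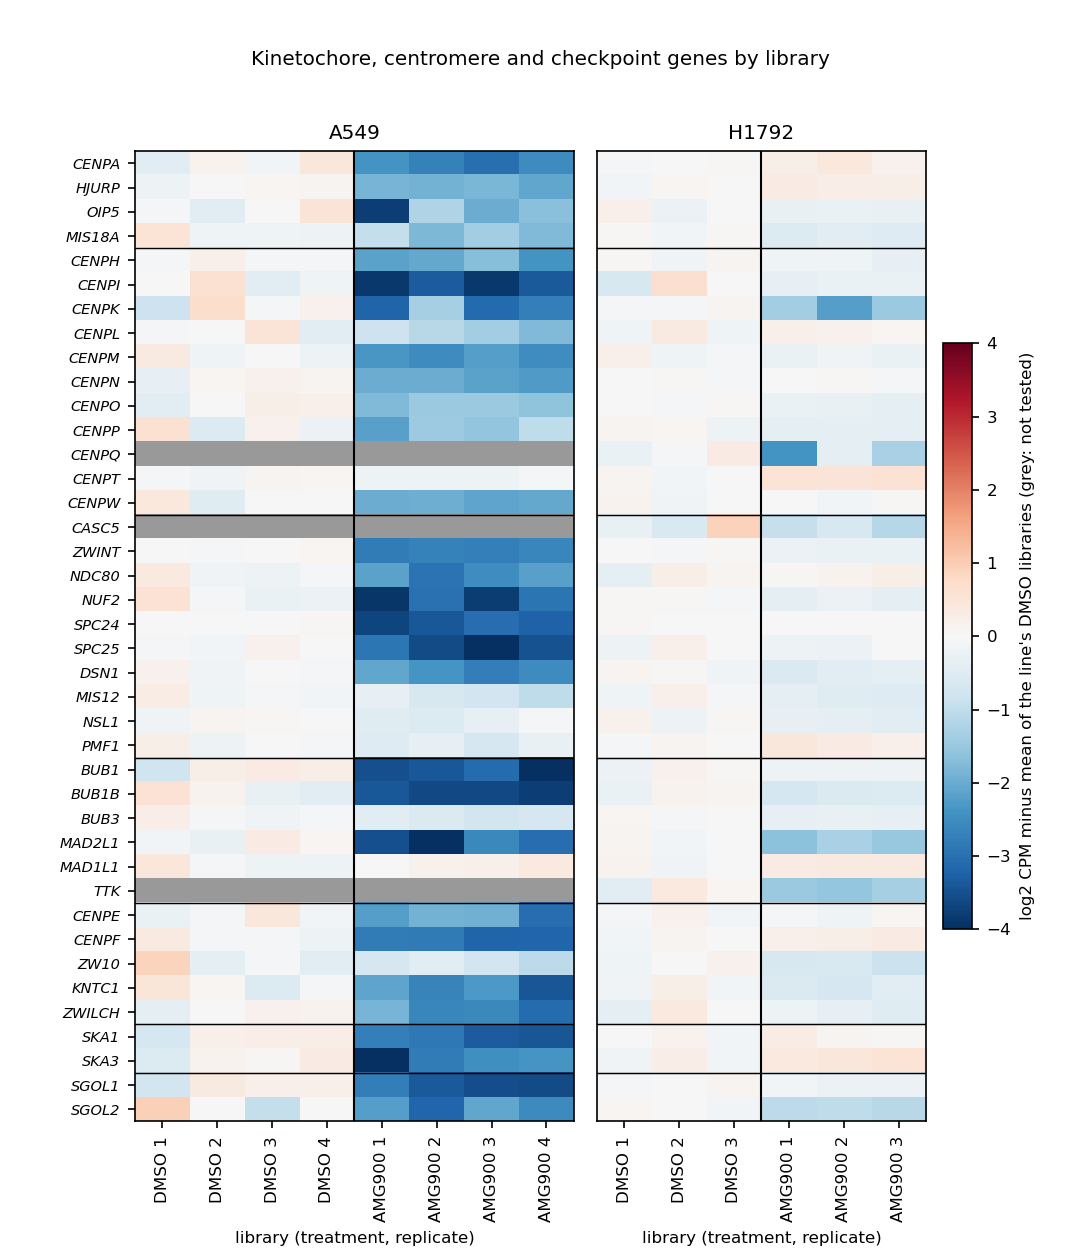
Heat map of log2 CPM minus the mean of the DMSO libraries of the same line, for 40 members (rows, in role groups set off by lines) in each library (columns), with grey for members not tested in A549. The AMG900 libraries of A549 are blue for most members and pale for CENPT, NSL1 and MAD1L1, whereas those of H1792 are mostly pale, with blue for CENPK, CENPQ, CASC5, MAD2L1, TTK and SGOL2.

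In H1792 the changes at the same dose were smaller. The average log2 level of the members relative to DMSO lay between -0.33 and -0.28 in the 3 AMG900 libraries and between -0.07 and 0.04 in the 3 DMSO libraries. Levels with AMG900 lay wholly below those with DMSO for 21 members (against 29.6% of all genes) and wholly above for 7 (against 30.1%), and overlapped for 12. All 40 members were tested, and 13 fell (background 18.8% of 15017 genes), 5 rose (background 16.2%) and 22 were not called. The 13 of 40 that fell are a larger share than the background, while the 5 of 40 that rose lie near theirs. The median log2 fold change was -0.28, against 0.01 for all genes. Of the called members, only CENPK, MAD2L1, TTK and SGOL2 fell at least 2-fold. Their transcripts are rich in A and T (GC content 32.8, 38.4, 36.4 and 34.4%, against a median of 41.6% over the members and 48.6% over all listed genes). The other members below 38.4% GC were not called. CENPQ (34.0% GC) and CASC5 (37.6%) were at -1.29 and -1.07, and CENPE (35.1%) and ZWILCH (36.9%) at -0.04 and -0.35. With an offset for GC content in each library, 7 members fell (background 18.2%) and 8 rose (background 17.7%), so that neither share stood apart from the background, and the median of the members was 0.01 against 0.03 for all genes. Without DMSO replicate 3, AMG900 replicate 1, AMG900 replicate 2 or AMG900 replicate 3, the 18 called members became 10, 11, 10 and 11. Over all genes, too, each of these fits called fewer lower and fewer higher. The calls of HJURP, CENPO, ZWINT, MIS12, PMF1, MAD1L1, CENPF and KNTC1 were each lost without at least 1 library. The 4 members that kept their call in all 14 other H1792 fits were CENPT (higher), BUB1B, MAD2L1 and TTK (lower).

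The change with AMG900 differed between the lines for 28 of the 40 members when the difference itself was tested, and in all 28 the H1792 value was the higher one (background 5.37% of 14769 genes). None was lower (background 9.17%), with 0 also at an unadjusted p under 0.05 and 0 with DESeq2. The median over the members was 2.01 in log2 units, against -0.10 over all genes. Line, culture medium and sequencing depth go together here too and cannot be told apart. Over all genes, the change with AMG900 was called higher in H1792 than in A549 for 793 genes and lower for 1355. With DESeq2 size factors the split was 1012 to 1033 and the median of all genes was -0.02. Under that scaling 29 members were called, all higher in H1792. The calls of OIP5, CENPL and PMF1 were each lost without at least 1 library. Of the 37 members tested in both lines, 10 fell in both (MIS18A, CENPK, CENPO, ZWINT, DSN1, BUB1B, BUB3, MAD2L1, KNTC1 and SGOL2), against 9.31% of 12625 genes. With the GC offset 6 of the 10 lost their H1792 call (CENPK, ZWINT, DSN1, BUB3, KNTC1 and SGOL2). HJURP and CENPF fell in A549 and rose in H1792.

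**Figure D2:**
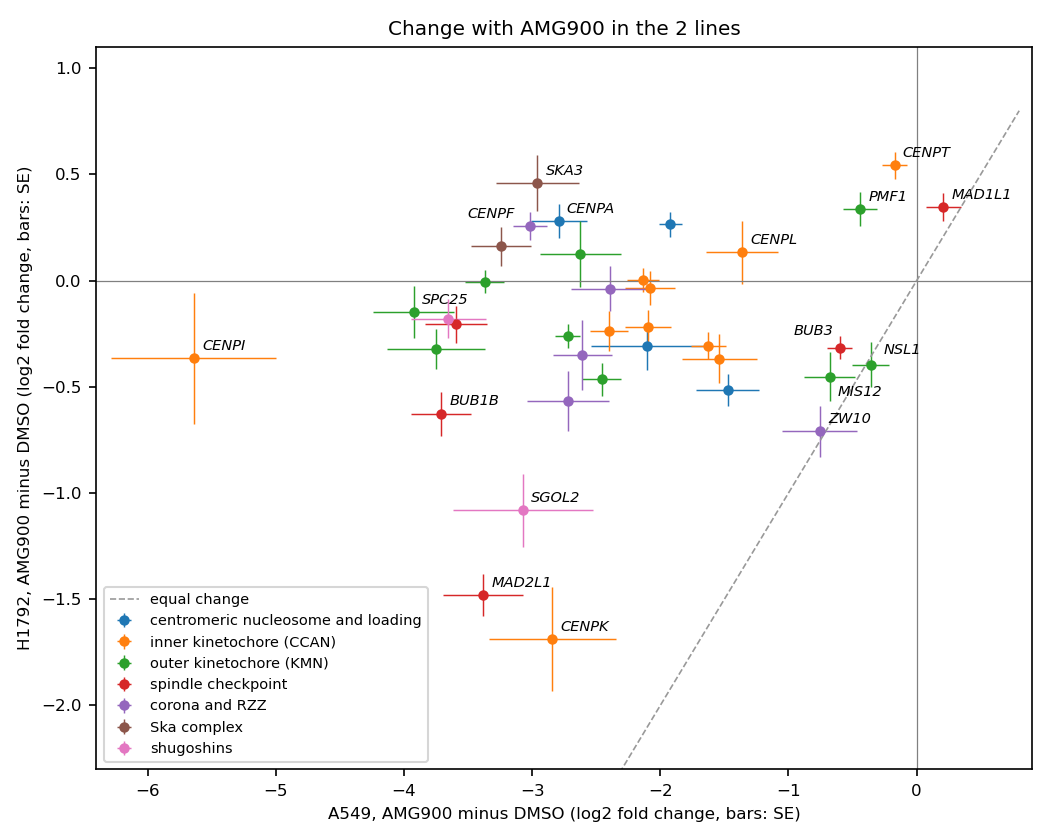
Log2 fold change with AMG900 in A549 (horizontal) and H1792 (vertical) for the 37 members tested in both lines, coloured by role, with standard errors and a dashed line of equal change. Most points lie left of the line, near 0 on the H1792 axis, while ZW10, NSL1, MIS12 and MAD1L1 lie on or close to it.

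The centromeric nucleosome and the factors that load it all fell in A549 (4 of 4). CENPA (chr2:26987157-27023935 on GRCh37) stood at 11.5, 17.4, 14.8 and 21.7 CPM in DMSO replicates 1 to 4 and at 2.93, 2.32, 1.83 and 2.65 CPM with AMG900. The groups were far apart, with a log2 fold change of -2.79 ± 0.22 (SE, adjusted p = 1.34e-07). Below, each ± after a log2 change is its SE, and levels are given in replicate order, DMSO before AMG900. In H1792 its level was 23, 24.6 and 24.9 CPM with DMSO and 28.5, 32.4 and 27.1 CPM with AMG900, and though the groups did not overlap the change of 0.28 ± 0.08 did not pass the threshold (adjusted p = 0.0152).

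HJURP, the chaperone that places CENPA on the centromere, was at 144, 164, 175 and 179 CPM with DMSO in A549 and at 45.6, 44.2, 46.2 and 39.1 CPM with AMG900, a change of -1.92 ± 0.09. In H1792 it rose from 262, 297 and 288 CPM to 351, 337 and 329 CPM, by 0.26 ± 0.06 (adjusted p = 0.00374), so the same gene moved in opposite directions and the difference between lines was 2.12 ± 0.11. OIP5 and MIS18A form the Mis18 complex that licenses each round of loading. OIP5 was at 3.05, 2.37, 3.29 and 4.69 CPM with DMSO and 0.0945, 1.33, 0.701 and 0.905 CPM with AMG900 in A549, where AMG900 replicate 1 was the lowest. Its H1792 levels were 14.5, 10.7 and 12.6 CPM and 10.1, 10.4 and 10.1 CPM, and the change there was not called (adjusted p = 0.0398). OIP5 shares its locus with an antisense gene, and since the strand used in counting is not given in the sources used here, reads of both cannot be told apart. MIS18A fell in both lines, from 13.4, 8.1, 8.0 and 7.89 to 4.63, 2.53, 3.4 and 2.59 CPM in A549 and from 25.4, 22.9 and 25.5 to 16.7, 17.9 and 17 CPM in H1792. The difference between its log2 changes, 0.87 ± 0.24, was not called (adjusted p = 0.0128).

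Among the 11 inner kinetochore members, 9 of the 10 tested in A549 fell: CENPH, CENPI, CENPK, CENPL, CENPM, CENPN, CENPO, CENPP and CENPW, with a median over the tested group of -2.09. CENPN (chr16:81040157-81066719), which reads the CENPA nucleosome, had 46.3, 61.2, 66.3 and 62.6 CPM with DMSO and 14.6, 14.5, 13.3 and 12 CPM with AMG900 in A549. The corresponding H1792 values were 66.4, 67.8 and 63.9 CPM and 65.7, 68.9 and 64.2 CPM, which overlapped. The changes were -2.14 ± 0.12 in A549 and 0.00 ± 0.06 in H1792. CENPN shares exon sequence with an annotated gene on its strand. CENPI, part of the CENPH-CENPI-CENPK-CENPM unit, had 2.11, 3.28, 1.49 and 1.84 CPM with DMSO and 0, 0.0702, 0 and 0.0646 CPM with AMG900 in A549. The AMG900 libraries held 2 counts in all against 96 with DMSO, a scaled level of 1.61% of DMSO (95% exact interval 0.192 to 5.98%, counting error only). H1792 values of CENPI were 0.856, 2.13 and 1.39 CPM and 1.09, 1.14 and 1.14 CPM and overlapped, and the difference between lines was the largest of the members at 5.39 ± 0.79. A count of 0 in an A549 AMG900 library allows up to 0.162 to 0.283 CPM, depending on its depth.

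CENPK, of the same unit, fell in both lines. Its A549 levels were 1.64, 5.01, 2.91 and 3.44 CPM with DMSO and 0.189, 1.12, 0.216 and 0.323 CPM with AMG900, of which AMG900 replicate 2 was the highest. In H1792 they were 2.16, 2.18 and 2.46 CPM and 0.836, 0.459 and 0.778 CPM. The H1792 change of -1.69 ± 0.25 became -0.81 with the GC offset and was then not called (adjusted p = 0.0174). The remaining members that fell in A549 did so by log2 values from -2.40 (CENPM) to -1.36 (CENPL), and of these only CENPO was also called in H1792 (-0.31 ± 0.06). CENPO shares 1744 of 5518 exonic bases with genes on the opposite strand, and CENPP 4028 of 9315, so their counts could hold reads of those genes. CENPQ did not pass the low-count filter in A549, with 1.17, 0, 1.05 and 0.416 CPM with DMSO and 0, 0.281, 0.0539 and 0 CPM with AMG900. Its H1792 levels, 0.566, 0.657 and 0.866 CPM and 0.103, 0.519 and 0.259 CPM, differed by -1.29 ± 0.49 and were not called (adjusted p = 0.0488).

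CENPT (chr16:67862060-67881714), which anchors the Ndc80 complex to the inner kinetochore, stood apart from this group. It was at 39.9, 37.1, 44 and 43.1 CPM with DMSO and 35.5, 35.4, 35.7 and 39.3 CPM with AMG900 in A549, where the groups overlapped and the change of -0.17 ± 0.09 was not called (adjusted p = 0.144). With the GC offset it was -0.49 and was called lower (adjusted p = 1.74e-04). In H1792 it rose from 59.4, 51.9 and 55.6 CPM to 81.1, 79.9 and 82.3 CPM, by 0.54 ± 0.06 (adjusted p = 6.57e-05). CENPT overlaps other genes on the opposite strand, so its counts could hold their reads. Its partner CENPW fell in A549 (-2.08 ± 0.19) and was not called in H1792 (-0.04 ± 0.08).

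In A549 all 4 genes of the Ndc80 complex, the microtubule-binding rod, fell steeply: NDC80 (-2.62 ± 0.31), NUF2 (-3.75 ± 0.38), SPC24 (-3.37 ± 0.15) and SPC25 (-3.92 ± 0.32). NDC80 (chr18:2571556-2616634) stood at 5.64, 3.91, 3.74 and 4.16 CPM with DMSO and at 0.85, 0.421, 0.647 and 0.84 CPM with AMG900. In H1792 it was at 3.72, 5.62 and 5.2 CPM and 4.94, 5.27 and 5.6 CPM, overlapping values. SPC25 was at 5.64, 5.46, 6.58 and 5.88 CPM and 0.661, 0.351, 0.216 and 0.388 CPM in A549. SPC25 in H1792 overlapped between groups, at 7.71, 10.4 and 8.87 CPM with DMSO and 7.81, 7.63 and 8.84 CPM with AMG900, and its difference between lines was 3.74 ± 0.31. None of the 4 Ndc80 genes was called in H1792.

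Of the 4 Mis12 complex genes, which link the inner kinetochore to the Ndc80 rod, only DSN1 passed the threshold in A549. DSN1 (chr20:35380194-35402221) fell from 37.4, 30.5, 33.5 and 32.6 CPM to 7.84, 6.32, 4.75 and 5.69 CPM (-2.46 ± 0.15). It fell in H1792 as well, from 57.9, 55.4 and 49.4 CPM to 36.5, 39.4 and 42.2 CPM (-0.46 ± 0.08), a call lost with the GC offset (-0.25, adjusted p = 0.0273). MIS12 in A549 was at 10.1, 7.28, 7.92 and 7.6 CPM and 6.52, 5.12, 4.75 and 3.94 CPM, just outside the threshold (-0.68 ± 0.20, adjusted p = 0.0107). Without AMG900 replicate 1 its adjusted p was 0.0057, the only 1 of the 8 fits without a library that passed (highest adjusted p = 0.0353). With the GC offset its A549 change was -0.23 (adjusted p = 0.32). MIS12 in H1792 fell from 7.43, 9.5 and 8.09 CPM to 6.43, 5.95 and 5.84 CPM (-0.45 ± 0.12, adjusted p = 0.00788), and that change was -0.08 with the GC offset.

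NSL1 was not called in either line. Its A549 values of 13.4, 15.7, 15 and 14.7 CPM with DMSO and 10.5, 9.9, 11.6 and 14 CPM with AMG900 overlapped. Its H1792 values of 13.1, 10.2 and 12 CPM and 9.3, 8.86 and 8.68 CPM did not overlap, and the adjusted p there was 0.0107. PMF1, a Mis12 complex subunit, had values on opposite sides of 0 in the lines. It was at 28.9, 21.1, 24.8 and 23 CPM and 17.1, 19.4, 15.1 and 19.6 CPM in A549 (-0.44 ± 0.13, adjusted p = 0.012), and with the GC offset it was called lower (-0.66). In H1792 it rose from 24.7, 28.2 and 25.8 CPM to 35.9, 33.1 and 30.5 CPM (0.34 ± 0.08, adjusted p = 0.0059), a call lost with the GC offset (0.18). PMF1 shares exons with the read-through gene PMF1-BGLAP.

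CASC5 (KNL1), the scaffold that gathers checkpoint proteins, did not pass the low-count filter in A549. It was at 2.11, 2.0, 0.673 and 1.13 CPM with DMSO and 0.189, 0.14, 0.27 and 0.0646 CPM with AMG900, without overlap. H1792 levels were 1.01, 0.821 and 2.39 CPM, with DMSO replicate 3 the highest, and 0.643, 0.799 and 0.553 CPM, and the change was not called (adjusted p = 0.0426). ZWINT, which binds KNL1, fell in A549 (-2.72 ± 0.10) and in H1792 (-0.26 ± 0.06), and the latter call was lost with the GC offset (-0.13).

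**Figure D3:**
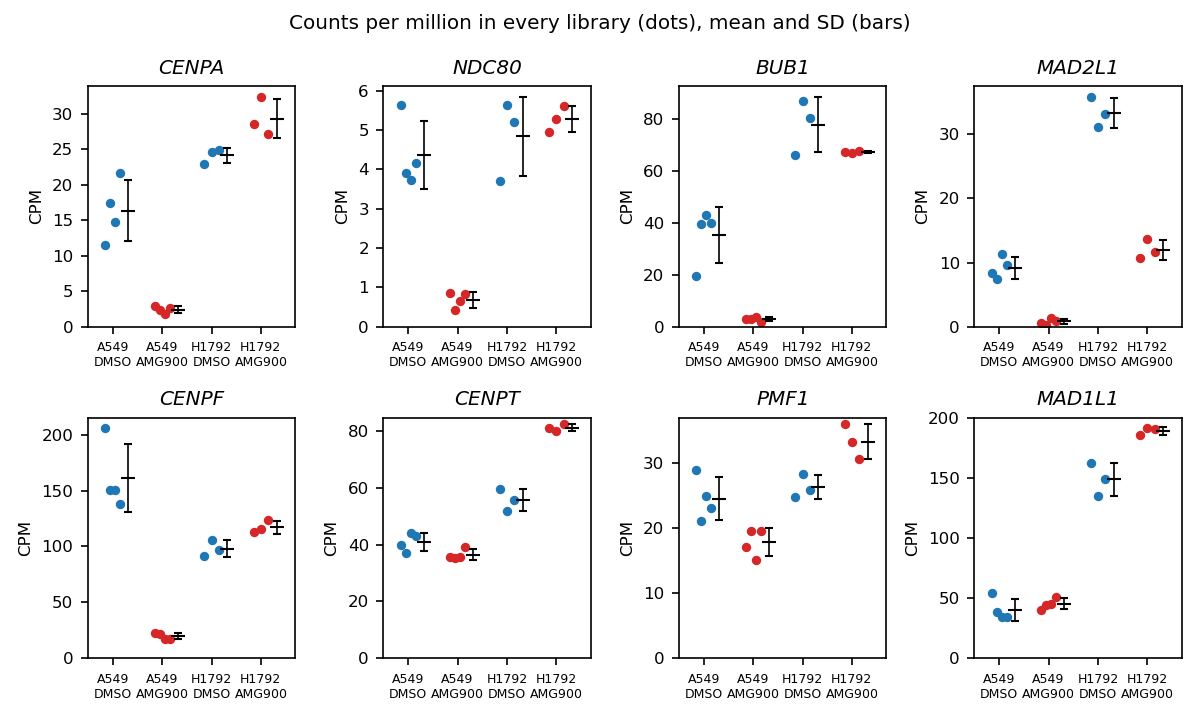
Levels in CPM in every library (dots) with mean and SD (bars) for 8 members, each panel on its own linear axis from 0. CENPA, NDC80, BUB1, MAD2L1 and CENPF drop in A549 with AMG900, MAD2L1 drops in H1792 too, and CENPT, PMF1 and MAD1L1 lie higher with AMG900 in H1792.

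Of the spindle checkpoint genes in A549, BUB1, BUB1B, BUB3 and MAD2L1 fell, MAD1L1 was not called and TTK did not pass the low-count filter. In the fit of A549 without that filter, 33 of the 40 members fell (background 12.3% of 20076 genes), CASC5 (-2.99 ± 0.64, adjusted p = 2.76e-04) and TTK (-5.03 ± 1.02, adjusted p = 1.46e-04) among them, whereas CENPQ was not called (-2.71 ± 0.98, adjusted p = 0.0307). BUB1 (chr2:111395105-111435640), a kinase that marks the kinetochore for other checkpoint proteins, was at 19.5, 39.5, 43 and 39.8 CPM with DMSO and 2.83, 3.09, 3.88 and 2.0 CPM with AMG900. DMSO replicate 1, the shallowest library, was low for this gene. In H1792 the values were 66.1, 86.6 and 80.4 CPM and 67.3, 66.9 and 67.6 CPM, which overlapped, and the difference between lines was 3.34 ± 0.27.

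BUB1B (BubR1, a subunit of the mitotic checkpoint complex) fell in both lines. It was at 38.1, 28, 20.6 and 19.1 CPM and 2.27, 1.97, 1.94 and 1.75 CPM in A549 (-3.71 ± 0.23). In H1792 it was at 27.7, 36.4 and 35.7 CPM and 20.2, 22 and 22.4 CPM (-0.63 ± 0.10, adjusted p = 6.38e-04). BUB1B shares exon sequence with PAK6 and the read-through BUB1B-PAK6. MAD2L1 (chr4:120976778-120988013), the protein that converts to the form that binds CDC20, fell in both lines. In A549 it went from 8.46, 7.37, 11.4 and 9.62 CPM to 0.661, 0.351, 1.4 and 0.97 CPM (-3.38 ± 0.31). H1792 went from 35.7, 31.1 and 33.2 CPM to 10.6, 13.7 and 11.6 CPM (-1.48 ± 0.10, adjusted p = 3.58e-06), a level 35.9% of that with DMSO, and with the GC offset the fall was -1.02 (adjusted p = 7.19e-05).

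TTK (MPS1), the kinase that starts checkpoint signalling, was at 1.41, 1.18, 0.822 and 0.237 CPM with DMSO in A549 and 0, 0, 0.0539 and 0 CPM with AMG900. The AMG900 libraries held 1 count against 34, a scaled level of 2.27% of DMSO (95% exact interval 0.0559 to 13.5%, counting error only). In H1792 it fell from 1.99, 3.63 and 2.89 CPM to 0.952, 0.918 and 1.07 CPM (-1.52 ± 0.24, adjusted p = 4.72e-04). The difference between lines, 3.66 ± 1.08, was among the 3 largest but was not called (adjusted p = 0.018). It comes from the fit of all 14 libraries, in which TTK passed the filter. BUB3, which is also known outside mitosis, fell little: -0.60 ± 0.10 in A549 and -0.32 ± 0.06 in H1792, and neither call held with the GC offset (-0.18 and -0.01).

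MAD1L1 (chr7:1855429-2272878), which carries MAD2 and also sits at nuclear pores between divisions, was at 54, 38.4, 34.2 and 34.3 CPM with DMSO and 40.3, 44.6, 45.6 and 51.4 CPM with AMG900 in A549. The groups overlapped, DMSO replicate 1 was highest, and without that library the change was 0.36 (adjusted p = 0.00274) rather than 0.21 ± 0.14 (adjusted p = 0.219). That was the only 1 of the 8 fits without a library that called it. With the GC offset its A549 change was -0.17 (adjusted p = 0.216). In H1792 it rose from 163, 135 and 149 CPM to 186, 192 and 191 CPM (0.35 ± 0.07), a call lost with the GC offset (0.11). The difference between the lines, 0.04 ± 0.16, was not called (adjusted p = 0.883). MAD1L1 overlaps an annotated long noncoding RNA on its own strand.

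Of the corona and RZZ genes, CENPE, CENPF, KNTC1 and ZWILCH fell in A549 and ZW10 did not pass the threshold. CENPE, a kinesin that carries chromosomes to the metaphase plate, was at 4.46, 5.1, 7.4 and 4.93 CPM and 1.04, 1.33, 1.29 and 0.517 CPM in A549. Its H1792 values, 10.4, 11.9 and 9.82 CPM and 10.4, 9.46 and 11.4 CPM, overlapped. The H1792 change was -0.04 ± 0.11, and with the GC offset it turned to 0.67 (adjusted p = 2.52e-04). CENPF (chr1:214776528-214837917), a large corona protein, fell in A549 from 206, 150.3, 151 and 138 CPM to 22.6, 22.2, 17.3 and 17.5 CPM (-3.02 ± 0.14). In H1792 it rose from 91.2, 106 and 96.9 CPM to 113, 115 and 123 CPM (0.26 ± 0.07, adjusted p = 0.00889). Leaving out any 1 of DMSO replicate 1, DMSO replicate 3 and the 3 AMG900 libraries took that rise out of the calls, at adjusted p between 0.0119 and 0.0483.

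KNTC1, ZWILCH and ZW10 make up the RZZ complex, which brings MAD1-MAD2 and dynein to kinetochores. KNTC1 was at 9.87, 7.47, 4.78 and 6.83 CPM and 1.51, 0.983, 1.29 and 0.517 CPM in A549 (-2.72 ± 0.32). In H1792 it fell from 4.77, 6.2 and 4.88 CPM to 3.47, 3.29 and 3.91 CPM (-0.57 ± 0.14), a call lost with the GC offset (-0.21). ZWILCH fell in A549 (-2.61 ± 0.23) and was not called in H1792 (-0.35 ± 0.17). ZW10, which also acts in Golgi traffic, was at 11.7, 4.73, 5.9 and 4.51 CPM and 3.87, 4.49, 3.61 and 2.91 CPM in A549, with DMSO replicate 1 highest (-0.76 ± 0.29, adjusted p = 0.042). In H1792 it fell from 8.74, 9.87 and 11 CPM to 6.24, 6.45 and 5.38 CPM (-0.71 ± 0.12, adjusted p = 6.55e-04). The differences between lines were among the 3 smallest for ZW10 (-0.07 ± 0.32) and NSL1 (-0.11 ± 0.19), and neither was called.

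The Ska complex and the shugoshins fell throughout in A549. SKA1, which tracks microtubule ends, was at 12.2, 23, 24.2 and 24.4 CPM and 2.93, 2.67, 1.89 and 1.75 CPM in A549 (-3.24 ± 0.24). H1792 values of 20.1, 22.4 and 19.1 CPM and 25.3, 22.2 and 21.3 CPM overlapped. SKA3 fell in A549 (-2.96 ± 0.32), and in H1792 the AMG900 libraries lay above DMSO but the change of 0.46 ± 0.13 was not called (adjusted p = 0.0135). SGOL1 (shugoshin, SGO1, the guardian of centromeric cohesin) was at 5.17, 11, 9.87 and 9.85 CPM and 1.13, 0.702, 0.593 and 0.582 CPM in A549. Its H1792 values were 10.4, 10.8 and 11.8 CPM and 10.3, 9.42 and 9.37 CPM, and that change was not called (-0.18 ± 0.09). SGOL2 (SGO2) was at 3.76, 1.91, 0.897 and 1.84 CPM and 0.283, 0.0702, 0.324 and 0.194 CPM in A549 (-3.07 ± 0.55). In H1792 it fell from 2.64, 2.52 and 2.32 CPM to 1.18, 1.22 and 1.14 CPM (-1.08 ± 0.17), a call lost with the GC offset (-0.33, adjusted p = 0.147).

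Members with CHR letters in their promoters were mostly those that fell in A549. Such letters were present in 17 of the 25 members with a window that fell, and in 1 of the 6 that were not called (ZW10, with its match at position -224 from the start). Within 50 bases of the start they occurred in 16 of the 32 members with a window, against 6.24% of all genes with a window. All 16 fell in A549, but most members with a window fell there whether or not they held such letters (25, with 6 not called). The distance of 50 bases was not among the planned settings, and it leaves out the match of ZW10. CCAAT letters were in 16 of the 25 and 3 of the 6. In SPC25, NUF2, BUB1B, SGOL1 and BUB1, the 5 that fell furthest after CENPI among members with a window, CHR letters lay within 50 bases of the start. The RefSeq window of CENPI held neither kind of letters, and whether that window covers the promoter used in these cells was not tested.

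**Figure D4:**
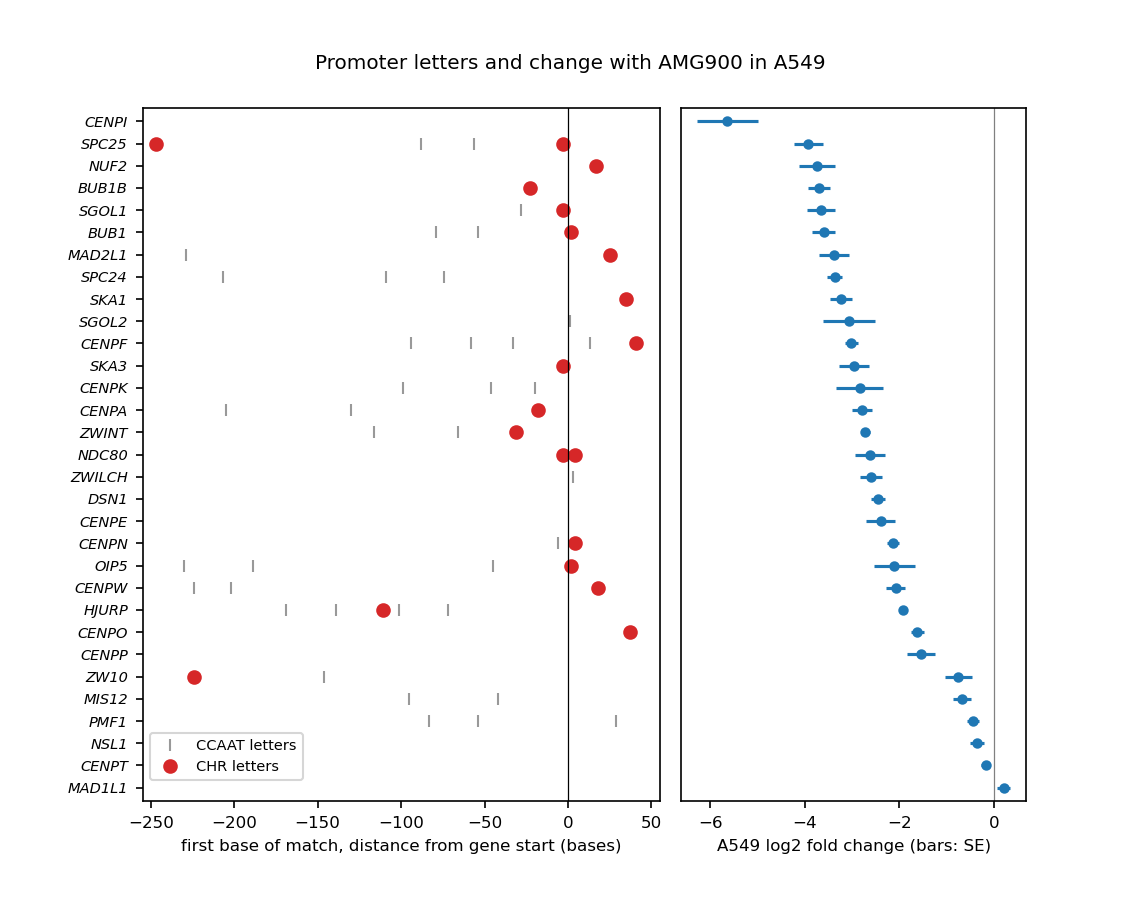
For the 31 members with a RefSeq window and a test in A549, positions of CHR letters (red) and CCAAT letters (grey) relative to the gene start in bases (left), beside the A549 log2 fold change with its standard error (right). Red dots cluster around the start in most of the rows above ZW10 and are missing from the rows below it.

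The split of H1792 by transcript composition was examined because the members are poor in GC. Across the 40 members, the H1792 change and the GC content of the transcript had a Spearman rho of 0.53, against 0.48 across 14376 genes with a GC value, and in A549 rho was 0.47 over 37 members and 0.50 over 12771 genes. Genes share libraries and are not replicates. With the offset, CENPA, NDC80, CENPE, SKA1 and SKA3 were called higher beside HJURP, CENPT and CENPF, and 6 of the 13 members that fell without it still fell (MIS18A, CENPO, BUB1B, MAD2L1, TTK and ZW10). CENPM was lower with the offset as well. In A549 the offset gave 32 that fell in place of 31, with CENPT and PMF1 added and BUB3 lost (2205 of 13174 genes were lower with it). What part composition has in the H1792 changes was not tested.

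**Figure D5:**
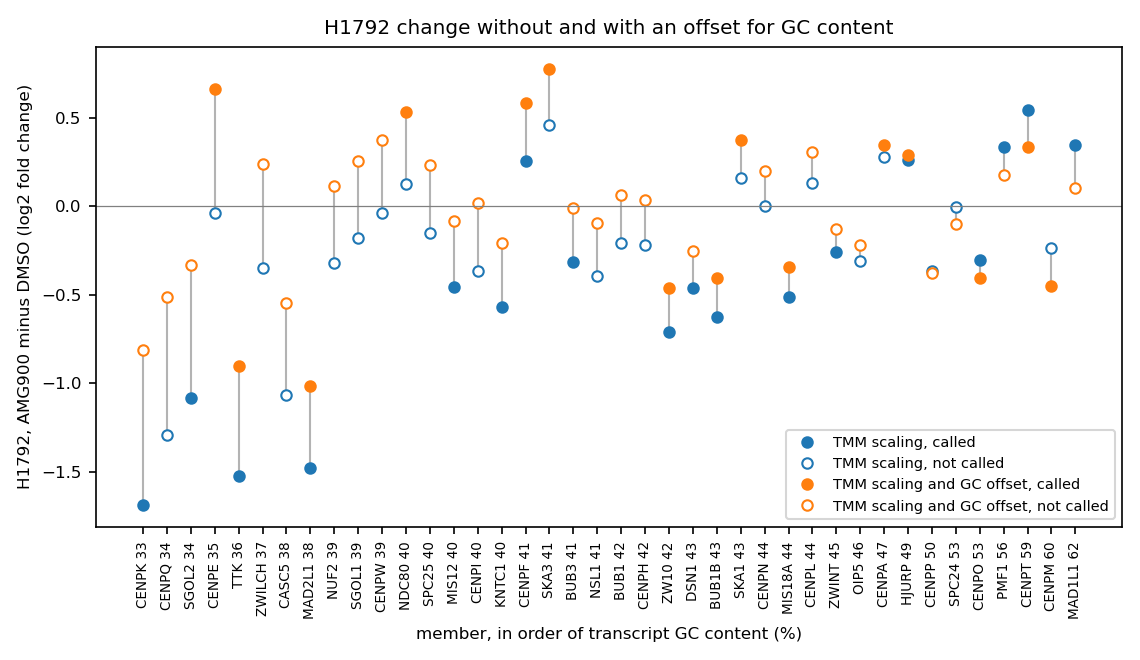
Log2 fold change with AMG900 in H1792 for each of the 40 members in order of transcript GC content, without (blue) and with (orange) an offset for GC content, filled where called at FDR 0.01. Members under about 45% GC move upwards with the offset, and those at the right end move little or downwards.

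With DMSO alone, more members lay higher in H1792 than in A549 than lay lower. Line, culture medium and sequencing depth cannot be told apart in this comparison. CENPQ, CASC5 and TTK failed the low-count filter in A549 alone but passed it in the fit of all 14 libraries, so the 40 include them. TTK held 4 to 13 counts per A549 DMSO library and 127 to 177 per H1792 DMSO library. Of the 40, 19 were higher in H1792 (background 34.2% of 14769 genes), 3 were lower (ZWINT, CENPF and SKA3, background 31.9%) and 18 were not called, with a median of 0.48 against 0.04 for all genes. All 4 genes of centromeric nucleosome loading were higher (CENPA 0.61, HJURP 0.86, OIP5 1.96 and MIS18A 1.57), as were 5 of the 6 checkpoint genes, led by MAD1L1 (2.03 ± 0.12), MAD2L1 (1.93 ± 0.17) and TTK (1.92 ± 0.40). CENPH (1.34), CENPM, CENPT, CENPW (1.64), NUF2, SPC24, SPC25, DSN1, CENPE and ZW10 were the others. CENPF was lower (-0.60 ± 0.11) in this and all 21 other fits, whereas the calls of ZWINT and SKA3 were lost with the GC offset (adjusted p = 0.191 and 0.0159) and with the replicate number as a block (adjusted p = 0.0112 and 0.02), and that of ZW10 with that block (adjusted p = 0.0177). Each of these 3 calls was also lost without at least 1 library. Per kilobase of transcript, HJURP was the most abundant member in both lines (52.4 ± 5.02 CPM per kb in A549, SD, n = 4, and 89.4 ± 5.81 in H1792, n = 3), ahead of CENPM (38.8 ± 7.51 and 56.7 ± 7.93). CASC5 was the least abundant in both (0.16 ± 0.0751 and 0.152 ± 0.0927).

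A separate list held 16 other genes of the pathway. In A549, 10 of the 16 fell (background 17.8%) and 6 were not called (median -1.41), and in H1792 5 fell (background 18.8%) and 11 were not called (median -0.25). The difference between lines was called for 5 of them, all higher in H1792 (background 5.37%, median 0.80). CDC20, the target of the checkpoint, fell in A549 (-3.11 ± 0.09) and was at 0.13 ± 0.05 in H1792 (adjusted p = 0.0632), and TRIP13, which disassembles the checkpoint complex, fell in A549 (-2.52 ± 0.09) and was not called in H1792 (-0.02 ± 0.06). CENPU of the inner kinetochore fell in both lines (-3.14 ± 0.54 and -1.16 ± 0.19). CENPB, which binds alpha-satellite DNA, was not called in either (-0.04 ± 0.08 and -0.16 ± 0.07).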

How the data were processed

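Per the submitters' processing notes, the authors used STAR and HTSeq with the human genome hg19 (GRCh37), versions and counting options, strand included, being not given in the sources used here. The deposited values are raw read counts per gene, in 1 table for each line. The 28 date-named entries of the H1792 table (0.101 to 0.117% of counts) were left out. Members and lists were chosen with earlier results of these data known.

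Counts were tested with edgeR 4.0.16 (R 4.3.3): TMM scaling, filterByExpr, a quasi-likelihood test and Benjamini-Hochberg adjustment over all genes tested, with calls at FDR 0.01. Each line was fitted alone. The difference between lines and the DMSO comparison came from 1 fit over all 14 libraries. CPM used each line's own TMM scaling, and heat map values a prior count of 2. The spread between replicates (biological coefficient of variation) was 12.8% in A549 and 9.60% in H1792. Every pair of replicates differed by more than sampling noise (chi-square per gene 3.31 to 48.3). On simulated counts with 200 changed genes, 3-fold changes were recovered for 96% in A549 and 98% in H1792, and 1.5-fold changes for 33% and 58%. For the difference between lines, 3-fold changes were recovered for 88.5% and 1.5-fold changes for 1.5%. A difference between lines that was not called therefore does not show that the lines changed alike.

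Alternatives were DESeq2 1.42.0, its size factors, total-count scaling, no low-count filter or at least 10 counts in every library, a GC offset (natural spline, 5 degrees of freedom), a replicate block, both together, leaving out each library, an FDR of 0.05 and a 2-fold minimum. Gene positions, GC contents and lengths came from GENCODE v44lift37 (GRCh37), and promoters from RefSeq on GRCh38.p14, used for letters only.

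Every member is named with its call. Values in every library are given for best known members of each role group, members not called lower in A549, the H1792 calls (at most 6 with the smallest adjusted p in each direction), and the 3 largest and 3 smallest differences between lines. Intervals and floors (3 counts) cover counting error only.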

Additional observations from a re-analysis of the deposited data

Results flagged for a closer look

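The change with AMG900 differed between the lines by the test of the difference itself for 28 members, and in each the H1792 change was the higher one. The differences on the log2 scale (H1792 change minus A549 change) in the centromeric nucleosome and loading group were 3.03 for CENPA, 2.12 for HJURP and 1.74 for OIP5. In the inner kinetochore they were 1.80 for CENPH, 5.39 for CENPI, 1.43 for CENPL, 2.08 for CENPM, 2.08 for CENPN, 1.25 for CENPO, 0.64 for CENPT and 1.96 for CENPW. Outer kinetochore values were 2.39 for ZWINT, 2.67 for NDC80, 3.33 for NUF2, 3.29 for SPC24, 3.74 for SPC25, 1.92 for DSN1 and 0.70 for PMF1. Among checkpoint genes they were 3.34 for BUB1, 2.99 for BUB1B and 1.83 for MAD2L1. For the corona and RZZ they were 2.30 for CENPE, 3.20 for CENPF, 2.07 for KNTC1 and 2.20 for ZWILCH. The Ska and shugoshin genes gave 3.35 for SKA1, 3.35 for SKA3 and 3.44 for SGOL1. These values rest on 1 scaling of both lines, under which the median of all genes was -0.10, and 25 of the 28 were called in all 22 other fits of this comparison that tested them.

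Single A549 libraries lay far from the other 3 of their group for 9 of 80 groups of values. The groups share the same libraries and are not independent, so this count cannot be set against a chance rate. DMSO replicate 1, the library with the fewest counts (4254644), stood apart for 5 members, with MIS18A at 13.4 CPM, NUF2 at 7.52 CPM and BUB3 at 112 CPM above the others and BUB1 at 19.5 CPM and SKA1 at 12.2 CPM below them. Others were CENPH at 16.6 CPM in DMSO replicate 2, CENPK at 1.12 CPM in AMG900 replicate 2, CENPT at 39.3 CPM in AMG900 replicate 4 and TTK at 0.0539 CPM in AMG900 replicate 3. The TTK value is a single count beside counts of 0, where the rule flags any value. Without DMSO replicate 1, 32 members fell and 1 (MAD1L1) rose in A549, in place of 31 and 0. The same 31 fell, and the member added had failed the low-count filter in the main fit. Over all genes, 2978 of 13452 were then lower and 2876 higher, against 2340 and 2265 of 13174 in the main fit.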

How the results depend on the processing

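In A549, 30 of the 31 members that fell were called in all 16 other fits that tested them, BUB3 being the exception with the GC offset. Requiring 10 counts in every library left 25 members, of which 19 were called, all lower, and 18 were called higher in the difference between lines, since fewer genes were tested. Over all genes, 2051 of 11032 were then lower in A549, and 717 of 10666 were higher in that difference. Leaving out 1 library gave 32 to 34 members lower and 0 to 1 higher in A549, the 1 being MAD1L1 without DMSO replicate 1. The same 31 fell in each such fit. The members added were MIS12, without AMG900 replicate 1, and members that the low-count filter had left out of the main fit. Over 13232 to 13489 genes, these fits called 1846 to 2978 lower and 1845 to 2876 higher. In H1792 leaving out 1 library gave 10 to 21 called, 9 to 15 lower and 1 to 6 higher. Over 15139 to 15413 genes, those fits called 1853 to 3656 lower and 1382 to 3047 higher. For the difference between lines leaving out 1 library gave 26 to 29, and for the DMSO comparison 19 to 25 called, 18 to 20 higher and 1 to 5 lower (5 without A549 DMSO replicate 1, and 1 without A549 DMSO replicate 4 or H1792 DMSO replicate 1). Over 14644 to 15016 genes, such fits called 602 to 1142 higher in the difference between lines. In the DMSO comparison they called 4765 to 5286 higher and 4117 to 4903 lower. H1792 calls moved the most. Members lower were 7 with the GC offset (background 18.2%), 20 at an FDR of 0.05 and 4 with a 2-fold minimum (4 called in all, 0 higher). Members higher were 8 with the GC offset (background 17.7%) and 2 with scaling by total counts (1859 of 15017 genes). At an FDR of 0.05 and with a 2-fold minimum the calls over all genes were not counted, so those member counts have no background. CENPE turned to 0.67 with the GC offset, and the cause was not tested. With a 2-fold minimum the DMSO comparison called 11, all higher and 0 lower. Replicate numbers are shared by the groups, but nothing in the labels pairs them and same-numbered libraries did not deviate together (r from -0.15 to 0.06 in A549 and from -0.10 to 0.03 in H1792). With the replicate block, A549 gave 31 lower, H1792 10 lower and 3 higher, the difference between lines 27 and the DMSO comparison 18 higher and 1 lower. Over all genes, that block gave 1984 of 13174 lower in A549, and 2618 lower and 2170 higher of 15017 in H1792. Of 14769 genes it called 604 higher in the difference between lines, and 4846 higher and 4484 lower in the DMSO comparison. With the GC offset and replicate block, H1792 gave 5 lower and 9 higher (2269 and 2195 of 15017 genes), with CENPW at 0.39 and CENPE at 0.67. The low-count filter left out CENPQ, CASC5 and TTK in A549, at 0 to 22 counts per DMSO library, and without it CASC5 and TTK were called lower.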
